A study of Homo sapiens with 9 samples.

Results

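The 10 genes described here are members of the BCL2 family, which sets whether the outer membrane of the mitochondrion is opened during apoptosis. They comprised the pro-survival genes BCL2, BCL2L1 and MCL1, the effectors BAX and BAK1, and the BH3-only genes BBC3, PMAIP1, BCL2L11, BID and BAD. They were chosen by name, each was matched to its Ensembl identifier in the table of 60664 genes, and all 10 were among the 17207 genes with enough counts to be tested. Polyadenylated RNA was sequenced from 3 lines of Huh-7, an established hepatocellular carcinoma line, grown in complete medium without treatment, with 3 libraries per line. WT is the parental line. In 1-1 KO the gene of vault RNA vtRNA1-1 was deleted by CRISPR/Cas9, and in 1-2 KO that of vtRNA1-2. Per the study's methods the 1-1 KO cells came with the WT cells from another laboratory, whereas the 1-2 KO cells were made on the WT cells and grown from 1 cell. Each knockout was therefore represented by 1 line, so that the effect of the deletion and a property of the line cannot be told apart. The study calls the libraries of a line biological replicates, and the labels do not say how they were separated, so that the p-values measure the spread between these libraries.

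Pro-survival members bind and restrain BAX and BAK1. When freed or activated, BAX and BAK1 form pores in the outer mitochondrial membrane, cytochrome c leaves, and the apoptosome of APAF1 and caspases is assembled. BH3-only proteins report different kinds of stress: some occupy the groove of the pro-survival members and some also activate the effectors directly. Hepatocytes are known to depend on MCL1 and BCL2L1 for survival. Much of the control of these proteins, such as the rapid turnover of MCL1, the cleavage of BID and the phosphorylation of BAD, takes place after transcription and cannot be seen in mRNA counts.

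Total counts per library lay between 32384469 and 41782387. Levels are given as CPM (counts scaled to a common library size, after edgeR's TMM normalization), and fold changes as log2 of the first line over the second with the standard error (SE) of edgeR's quasi-likelihood fit. A gene was called where the p adjusted by Benjamini-Hochberg over all tested genes was under 0.05. The vault RNA genes did not check the labels: no library held a count of VTRNA1-2, and the only count of VTRNA1-1 was in WT 1. Libraries of a line differed by more than counting error, and 1-2 KO 1 stood farthest from its line, where the chi-square of its counts against the other 1-2 KO libraries was 15.3 and 16.2 per degree of freedom. The 10 hepatocyte markers were expressed in every library, and their summed level was 15055 to 15995 CPM in WT, 31225 to 32165 CPM in 1-1 KO and 21246 to 23268 CPM in 1-2 KO. Compared with WT, 8 of them were called higher and 1 lower in 1-1 KO. In 1-2 KO 4 were called higher and 3 lower, with a median log2 fold change of 0.05. The summed level of 5 endothelial markers was 7.42 to 8.04 CPM in WT, 6.43 to 7.22 CPM in 1-1 KO and 0.831 to 1.10 CPM in 1-2 KO, nearly all of it PECAM1 in WT and 1-1 KO, with KDR at 0 in all libraries. That of 5 immune markers was 1.49 to 1.60 CPM in WT, 3.41 to 3.73 CPM in 1-1 KO and 2.62 to 3.13 CPM in 1-2 KO. The 5 stromal markers summed to between 115 and 292 CPM, lowest in 1-2 KO and highest in 1-1 KO. LUM was the largest part of this sum, with means of 157 CPM in WT and 62.1 CPM in 1-2 KO. Of the 4 stromal markers tested, LUM was the 1 called lower in 1-2 KO than in WT. COL1A1, COL1A2 and PDGFRB were called higher there. The part of these marker differences in the differences of the members was not tested.

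Under this threshold, 63.4% of the tested genes were called between 1-1 KO and WT (32.5% higher, 30.9% lower), 54.4% between 1-2 KO and WT (28.2% higher, 26.2% lower) and 65.3% between 1-2 KO and 1-1 KO (33.1% higher, 32.2% lower). Among the 10 members, 6 were called between 1-1 KO and WT, 2 higher and 4 lower, and 9 between 1-2 KO and WT, 5 higher and 4 lower. Library size as the sole scaling gave 3 higher and 3 lower in 1-1 KO. The direct comparison of 1-2 KO with 1-1 KO called all 10, 6 higher and 4 lower. A member was thus called about as often as any tested gene in 1-1 KO. The median log2 fold change of the members was -0.07 in 1-1 KO, 0.16 in 1-2 KO and 0.34 between the knockouts, beside 0.01, 0.02 and 0.01 over all tested genes. The comparisons of the knockouts with WT share the WT libraries, and those of 1-2 KO with WT and with 1-1 KO share the 1-2 KO libraries.

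**Figure D1:**
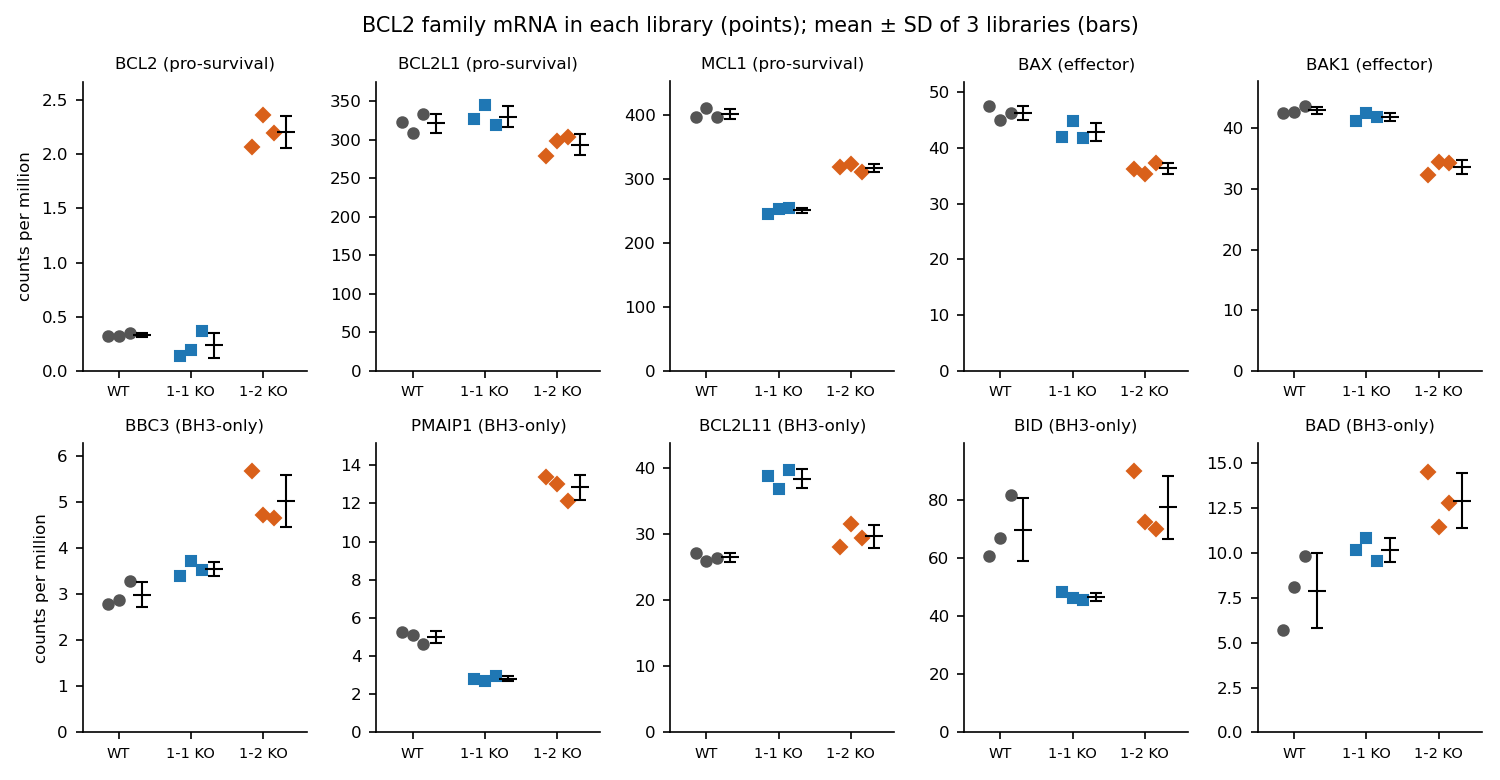
Each panel plots 1 member, with the CPM of each library on the vertical axis from 0 and the 3 lines on the horizontal axis; points are libraries and bars the mean ± SD of 3 libraries. PMAIP1 and BCL2 stand highest in 1-2 KO, MCL1, BAX and BAK1 are lower there than in WT, and BCL2L11 is highest in 1-1 KO.

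PMAIP1 encodes NOXA, a BH3-only protein that binds MCL1 with preference over other pro-survival members. It lies on the plus strand of chromosome 18 (GRCh38, 59899996 to 59904305). PMAIP1 had the smallest p of the F-test over the 3 lines among the members. The knockouts differed from WT in opposite directions for this gene. Its level was 5.25, 5.09 and 4.63 CPM in the WT libraries, 2.81, 2.68 and 2.97 CPM in 1-1 KO, and 13.4, 13.0 and 12.1 CPM in 1-2 KO, from 110 to 565 counts. The 3 lines did not overlap: every 1-1 KO library lay below every WT library, and every 1-2 KO library lay above. PMAIP1 fell by 0.83 in 1-1 KO on the log2 scale (SE 0.0941, edgeR adjusted p = 2.93e-06) and rose by 1.36 in 1-2 KO (SE 0.0820, adjusted p = 5.66e-09), a 2.57-fold rise. The direct difference between the knockouts was 2.19 (SE 0.0867, 95% interval 2.00 to 2.38, adjusted p = 4.04e-11), or 4.56-fold. The 50 tested genes nearest PMAIP1 spanned 19.9 megabases and included BCL2. Of them, 29 were lower and 3 higher in 1-1 KO, with a median of -0.41, and 7 were lower and 15 higher in 1-2 KO, with a median of 0.08. Measured against these medians, PMAIP1 differed from WT by -0.42 in 1-1 KO and by 1.28 in 1-2 KO, both called. Here and below, the median was entered as a fixed value, so that such calls leave out the spread among the neighbours. The quartiles of these neighbours were -0.78 and -0.04 in 1-1 KO and -0.11 and 0.36 in 1-2 KO.

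The start of PMAIP1 is shown because this gene was called lower in 1-1 KO and higher in 1-2 KO, and that of BCL2L11 because its rise in 1-1 KO was called and its libraries there lay above all others. Both are the 250 bases before the transcription start in RefSeq (GRCh38.p14), 5′ to 3′ on the strand of the gene, where no GENCODE 44 exon lies. The window of BCL2L11 lies inside the gene as GENCODE 44 annotates it, from 111119378 to 111168444. Capitals mark matches on either strand to the letters searched, which were the TATA box TATAAA, the GC box GGGCGG bound by SP1, the CCAAT box bound by NF-Y, the E-box CACGTG bound by MYC, the cyclic AMP response element TGACGTCA, the FOXO site GTAAACA, the p53 half-site and the NF-kB consensus.
PMAIP1, chr18:59899746-59899995, plus strand: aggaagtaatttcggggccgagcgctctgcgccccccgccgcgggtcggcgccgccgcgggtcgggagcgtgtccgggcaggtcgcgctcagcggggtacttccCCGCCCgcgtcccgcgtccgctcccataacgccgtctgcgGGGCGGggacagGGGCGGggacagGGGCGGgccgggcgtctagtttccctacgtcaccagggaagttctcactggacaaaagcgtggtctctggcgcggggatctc
BCL2L11, chr2:111120664-111120913, plus strand: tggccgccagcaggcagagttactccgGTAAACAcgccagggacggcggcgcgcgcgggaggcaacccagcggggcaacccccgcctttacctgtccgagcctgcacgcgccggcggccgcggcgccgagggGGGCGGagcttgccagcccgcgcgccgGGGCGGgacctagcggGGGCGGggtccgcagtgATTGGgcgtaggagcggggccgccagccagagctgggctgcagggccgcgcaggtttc
The capitals in PMAIP1 are 4 matches to GGGCGG, the farthest of them 146 bases before the start. Those in BCL2L11 are 1 match to GTAAACA, 223 bases before the start, 3 to GGGCGG and 1 to CCAAT, and no 2 matches overlap in either sequence. The set of promoter sequences used here held this window for 9 of the 10 members, all but MCL1. GGGCGG occurred in 6 of the 9 and in 42.6% of all 35116 promoters of the same length, CCAAT in 5 of the 9 and in 32% of all, and GTAAACA in 1 of the 9 and in 2.98% of all. The p53 half-site occurred in 1 of the 9, BAK1, and in 5.57% of all, CACGTG in 2 of the 9 (BAX, BBC3) and in 6.34% of all, and TATAAA in 1 of the 9 (BCL2L1) and in 10.7% of all. TGACGTCA, held by 1.65% of all promoters, and the NF-kB consensus, held by 5.21%, occurred in none of the 9. These are descriptions of letters, and binding was not measured.

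BCL2, the founding pro-survival member, was the member with the lowest mRNA level in all 3 lines and the largest difference from WT in 1-2 KO. Its counts were 13, 12 and 11 in WT, 6, 8 and 15 in 1-1 KO, and 87, 94 and 88 in 1-2 KO. In CPM the range was 0.320 to 0.349 in WT, 0.142 to 0.368 in 1-1 KO and 2.07 to 2.36 in 1-2 KO. The 1-2 KO libraries lay far above the rest, while WT and 1-1 KO overlapped. BCL2 rose by 2.73 in 1-2 KO on the log2 scale (SE 0.226, 95% interval 2.24 to 3.21, edgeR adjusted p = 1.58e-07), which is 6.61-fold. In 1-1 KO the log2 fold change was -0.50 (SE 0.336, 95% interval -1.22 to 0.23, adjusted p = 0.212), an interval that holds both no difference and a 2-fold lower level. Without 1-1 KO 3 it was -0.97 and called (adjusted p = 0.043), and the other libraries left out in turn gave values up to -0.23. The 50 tested genes nearest BCL2 spanned 19.8 megabases, included PMAIP1 and were largely the same genes as those nearest PMAIP1. Of them, 30 were lower and 4 higher in 1-1 KO, with a median of -0.31. Even after its rise BCL2 remained the lowest member per kilobase of exon, at 0.175 CPM per kilobase in 1-2 KO beside 70.0 for BCL2L1.

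BCL2 lies on the minus strand of the same chromosome as PMAIP1 (63123346 to 63320128), and 3219 kilobases separate these genes. Of the 7 tested genes between them, 4 were higher and 0 lower in 1-2 KO (median log2 fold change 0.38), and 1 was higher and 3 lower in 1-1 KO (median -0.28). Among the 10 members, BCL2 and PMAIP1 had the most alike levels over the 9 libraries (Pearson r of log2(CPM + 1) 0.955) and BCL2 and BAK1 the least alike (r = -0.955), which describes 3 lines of 3 libraries each. The tested genes of at least 1 CPM whose levels were most like those of PMAIP1 were FBN2 (r = 0.996), a fibrillin of the extracellular matrix, ETS1 (r = 0.996), a transcription factor, and SOBP (r = 0.996). FBN2 had a mean of 9.39 CPM in WT, 0.226 CPM in 1-1 KO and 412 CPM in 1-2 KO. SOBP covered a narrower range, with means of 26.3, 21.0 and 43.99 CPM in the same order.

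MCL1, a short-lived protein that restrains BAK1 in particular and is the main partner of NOXA, had less mRNA in both knockouts. Its level was 397, 411 and 397 CPM in WT, 246, 252 and 254 CPM in 1-1 KO, and 319, 323 and 311 CPM in 1-2 KO. The 3 lines did not overlap, with WT highest and 1-1 KO lowest. MCL1 fell by 0.68 in 1-1 KO on the log2 scale (SE 0.0333, adjusted p = 5.23e-10) and by 0.34 in 1-2 KO (SE 0.0332, adjusted p = 8.97e-07), and its level was 0.34 higher in 1-2 KO than in 1-1 KO (adjusted p = 5.45e-07). Most genes around MCL1 on chromosome 1 were lower too. Of its 50 nearest tested genes, 25 on each side within 1.72 megabases in all, 37 were lower and 5 higher in 1-1 KO, with a median of -0.49, and 26 were lower and 4 higher in 1-2 KO, with a median of -0.24. Measured against those medians, MCL1 was lower by -0.19 in 1-1 KO and -0.09 in 1-2 KO, both still called, and differed by 0.04 between the knockouts, which was not called. These calls leave out the spread among the neighbours. MCL1 lay between the quartiles of its neighbours, -0.79 and -0.32 in 1-1 KO and -0.46 and -0.06 in 1-2 KO. Whether the neighbours and MCL1 share a cause was not tested.

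BCL2L1, which encodes BCL-XL and is the most abundant member per kilobase of exon, changed little. It was at 323, 308 and 333 CPM in WT, 327, 345 and 319 CPM in 1-1 KO, and 279, 299 and 304 CPM in 1-2 KO. WT and 1-1 KO overlapped, and the 95% interval of their log2 difference ran from -0.06 to 0.13 (adjusted p = 0.471). The 1-2 KO libraries lay just under those of WT, with a fall of 0.13 (SE 0.0439, adjusted p = 0.0218). This call was lost without 1-2 KO 1 (-0.09) or WT 1, and with no TMM factors (-0.08). Of the 50 tested genes nearest BCL2L1 on chromosome 20, 22 were higher and 6 lower in 1-2 KO, with a median of 0.25, and measured against it the difference was -0.38.

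BAX and BAK1, the effectors that form the pore, both had less mRNA in 1-2 KO. BAX was at 47.4, 45.0 and 46.2 CPM in WT, 41.99, 44.8 and 41.8 CPM in 1-1 KO, and 36.3, 35.3 and 37.3 CPM in 1-2 KO. BAK1 was at 42.5, 42.7 and 43.6 CPM in WT, 41.2, 42.5 and 41.8 CPM in 1-1 KO, and 32.3, 34.4 and 34.3 CPM in 1-2 KO. For both genes all 3 libraries of 1-2 KO lay below all libraries of the other lines. BAX fell by 0.35 (SE 0.0448, adjusted p = 1.35e-05) and BAK1 by 0.35 (SE 0.0423, adjusted p = 7.1e-06) in 1-2 KO on the log2 scale, which is 1.27-fold and 1.28-fold. In 1-1 KO the log2 fold change of BAK1 was -0.04 (95% interval -0.13 to 0.05, adjusted p = 0.45). That of BAX was -0.11 (95% interval -0.20 to -0.01, adjusted p = 0.0463) and was called neither by DESeq2 nor under library size as the sole scaling, another filter on low counts, or without WT 1, WT 3, 1-1 KO 1, 1-1 KO 3 or 1-2 KO 3.

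The effectors differed in what surrounded them. The 50 tested genes nearest BAX on chromosome 19 had a median of 0.47 in 1-1 KO, where 31 were higher and 4 lower, and of 0.17 in 1-2 KO. Measured against these medians, BAX was lower by -0.57 in 1-1 KO and by -0.52 in 1-2 KO, both called. The neighbours of BAK1 on chromosome 6 had a median of -0.24 in 1-2 KO, and measured against it BAK1 was lower by -0.11, still called. Its fold change lay between the quartiles of these neighbours, -0.43 and -0.05.

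**Figure D2:**
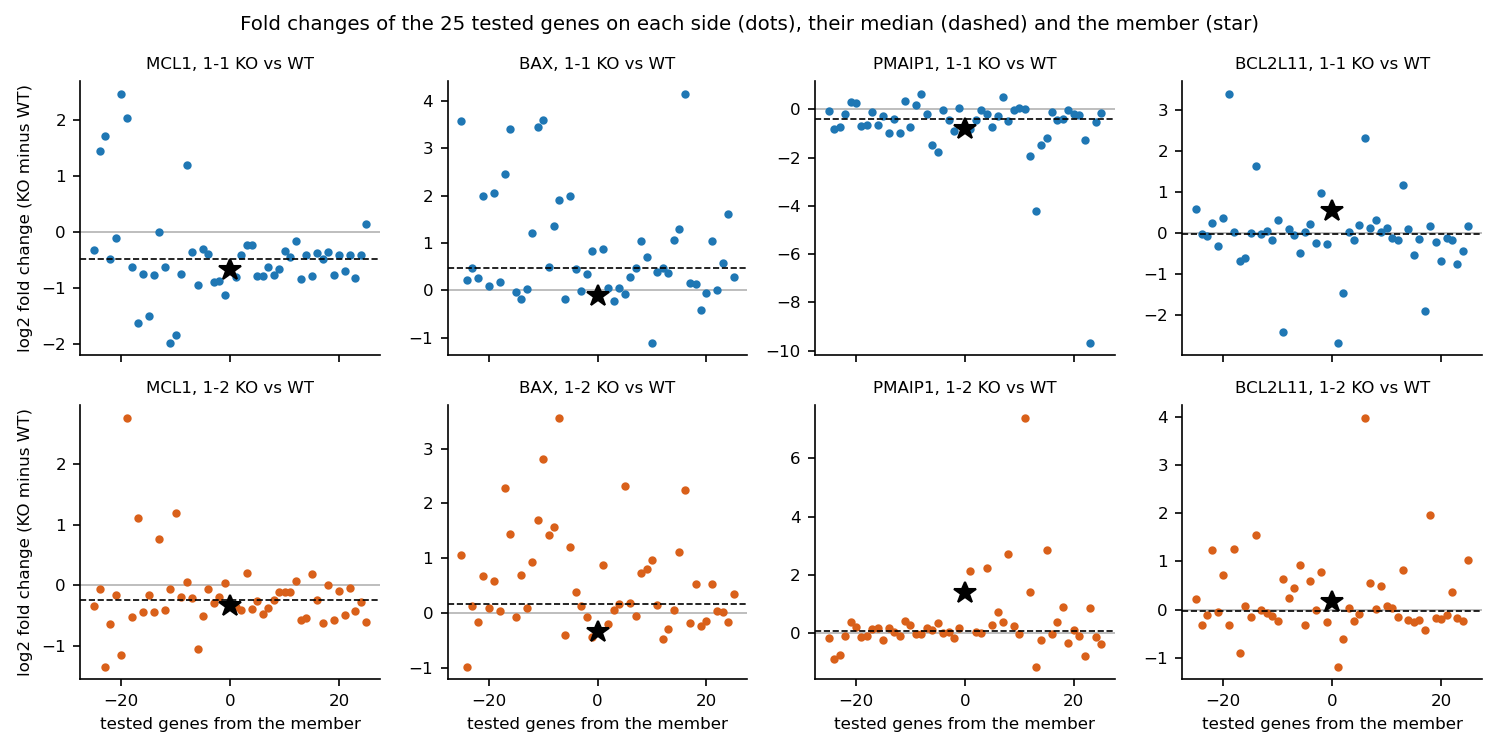
Each panel plots the log2 fold change (knockout minus WT, vertical axis) of the 25 tested genes on each side of a member against their place in gene order (horizontal axis), with the member as a star and the median of the neighbours dashed; 1-1 KO is above and 1-2 KO below. MCL1 sits near neighbours whose median is below 0 in both knockouts, BAX sits under a median above 0, PMAIP1 stands above the median of its neighbours in 1-2 KO and below it in 1-1 KO, and BCL2L11 stands above the median of its neighbours in 1-1 KO (0.54 against -0.02).

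BCL2L11 encodes BIM, a BH3-only protein that binds every pro-survival member and can activate the effectors. It was the member most clearly higher in 1-1 KO. Its level was 27.2, 25.9 and 26.4 CPM in WT, 38.7, 36.8 and 39.6 CPM in 1-1 KO, and 27.97, 31.5 and 29.5 CPM in 1-2 KO. All 1-1 KO libraries lay above all others, and the 1-2 KO libraries lay just above those of WT. BCL2L11 rose by 0.54 in 1-1 KO on the log2 scale (SE 0.0536, adjusted p = 8.17e-07), or 1.45-fold, and by 0.16 in 1-2 KO (SE 0.0542, adjusted p = 0.0205). The direct difference between 1-2 KO and 1-1 KO was -0.37 (adjusted p = 2.35e-05). The small rise in 1-2 KO was not called by DESeq2 (0.15) or without WT 2, WT 3 or 1-2 KO 2, the last of which gave 0.12. The antisense lncRNA gene MIR4435-2HG, with 16287 counts over all libraries beside 11267 for BCL2L11, covers 10.8% of the exon bases of BCL2L11, and the strand setting of the counting is not given in the sources used here.

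BBC3 encodes PUMA, a BH3-only protein known as a target of p53 that binds all pro-survival members. Its level was 2.79, 2.88 and 3.30 CPM in WT, 3.40, 3.72 and 3.53 CPM in 1-1 KO, and 5.67, 4.72 and 4.67 CPM in 1-2 KO, with at most 239 counts. BBC3 rose by 0.75 in 1-2 KO on the log2 scale (SE 0.113, adjusted p = 5.91e-05), or 1.69-fold, and was 0.50 higher there than in 1-1 KO (adjusted p = 0.00103). Its log2 fold change in 1-1 KO was 0.25 (SE 0.117, 95% interval 0.0022 to 0.50, adjusted p = 0.0727). The order of the 3 lines was the same in all libraries, and the difference from WT in 1-1 KO missed the threshold, which it passed without WT 3 (0.33, adjusted p = 0.0447) or with no TMM factors (0.30).

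BAD, a BH3-only protein held in the cytosol by 14-3-3 proteins while it is phosphorylated, spread widely among the WT libraries. It was at 5.70, 8.13 and 9.86 CPM in WT, 10.2, 10.8 and 9.54 CPM in 1-1 KO, and 14.5, 11.5 and 12.8 CPM in 1-2 KO. The 1-2 KO libraries lay above all others, whereas WT 3 lay within the range of 1-1 KO. BAD rose by 0.72 in 1-2 KO (SE 0.147, adjusted p = 0.000815), or 1.65-fold, and was 0.34 higher there than in 1-1 KO (adjusted p = 0.0461), a call lost without WT 2, 1-2 KO 1 (0.25), 1-2 KO 3 or any library of 1-1 KO. Its log2 fold change in 1-1 KO was 0.38 (SE 0.149, adjusted p = 0.0394), fell to 0.18 without WT 1 and was then not called, nor was it without WT 2, 1-1 KO 1 or 1-1 KO 2. The gene GPR137, on the opposite strand with 4957 counts over all libraries beside 3687 for BAD, covers 23.7% of the exon bases of BAD.

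BID, a BH3-only protein that caspase 8 cleaves to link death receptors to mitochondria, differed between the knockouts. It was at 60.7, 66.9 and 81.9 CPM in WT, 48.4, 46.3 and 45.6 CPM in 1-1 KO, and 90.1, 72.5 and 70.3 CPM in 1-2 KO. The 1-1 KO libraries were the lowest and close together, and WT and 1-2 KO overlapped, each with 1 library apart from the rest. These libraries, WT 3 and 1-2 KO 1, were also the highest of their lines for BBC3 and BAD. For PMAIP1 and BCL2L11, WT 3 was not the highest of its line. Over 17207 genes, the difference of WT 3 from WT 1 correlated with that of 1-2 KO 1 from the other 1-2 KO libraries (Pearson r = 0.237). Its source was not tested. BID fell by 0.58 in 1-1 KO (SE 0.101, adjusted p = 0.000189). Its neighbours on chromosome 22, of which the chromosome end left 37 rather than 50, had a median of -0.42, and measured against it the difference was -0.16 and not called. In 1-2 KO the log2 fold change from WT was 0.16 (95% interval -0.06 to 0.37, adjusted p = 0.199), 0.04 without 1-2 KO 1 and 0.27 and called without WT 3. The direct difference of 0.73 between 1-2 KO and 1-1 KO was called (SE 0.101, adjusted p = 1.72e-05).

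**Figure D3:**
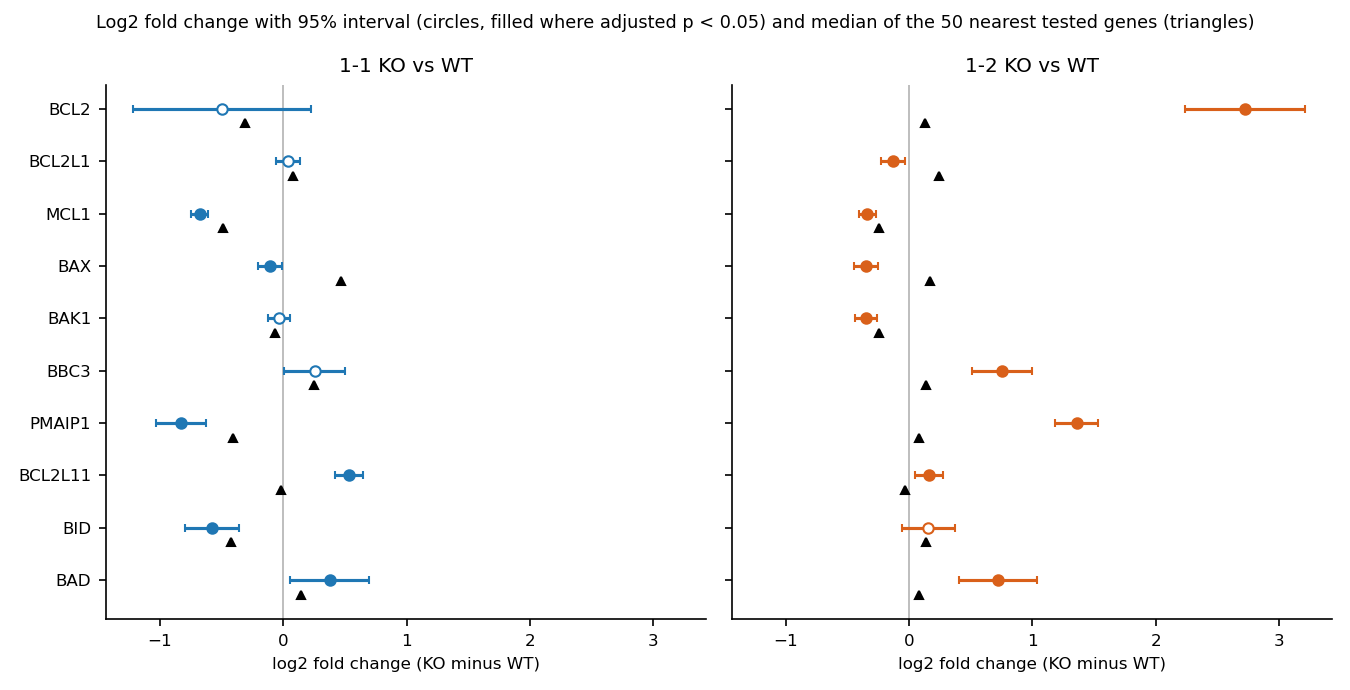
Log2 fold change of each member against WT (horizontal axis) in 1-1 KO (left) and 1-2 KO (right), with 95% intervals as bars, circles filled where the adjusted p was under 0.05, and triangles at the median of the nearest tested genes. BCL2 at 2.73 and PMAIP1 at 1.36 in 1-2 KO lie to the right of their triangles at 0.13 and 0.08, and in 1-1 KO, at -0.50 and -0.83, they lie nearer to triangles at -0.31 and -0.41. The neighbours of BCL2 and those of PMAIP1 are largely the same genes.

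By role, the BH3-only genes had 4 of 5 higher and 0 lower in 1-2 KO (median log2 fold change 0.72), and both effectors were lower. Over all tested genes, 28.2% were higher and 26.2% lower in this comparison. In 1-1 KO 2 BH3-only genes were higher (BCL2L11, BAD) and 2 lower (PMAIP1, BID), with a median of 0.25, beside 32.5% and 30.9% of all tested genes. The calls of BCL2L11 in 1-2 KO and of BAD in 1-1 KO were lost in some alternative runs. Of the pro-survival genes, 1 was higher (BCL2) and 2 lower in 1-2 KO, and 1 was lower (MCL1) in 1-1 KO. Per kilobase of exon, the order of the mean levels in WT was BCL2L1 (76.6 ± 2.97 CPM per kilobase, SD, n = 3), MCL1 (64.5 ± 1.29), BAK1 (19.4 ± 0.267), BAX (17.9 ± 0.474), BID (15.8 ± 2.46), BAD (4.63 ± 1.22), BCL2L11 (3.93 ± 0.0988), PMAIP1 (2.28 ± 0.148), BBC3 (0.938 ± 0.0850) and BCL2 (0.0263 ± 0.00119). Of these neighbours in the order, BAX and BID overlapped between libraries, as did BAD and BCL2L11. The order was the same in 1-1 KO. In 1-2 KO BID came before BAK1 and PMAIP1 (5.88 ± 0.301 CPM per kilobase) before BCL2L11 (4.40 ± 0.264). With the longest transcript as the length, BAX came before BAK1 in all 3 lines. BID also came before BAK1 in WT, and BBC3 before PMAIP1 in 1-1 KO.

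**Figure D4:**
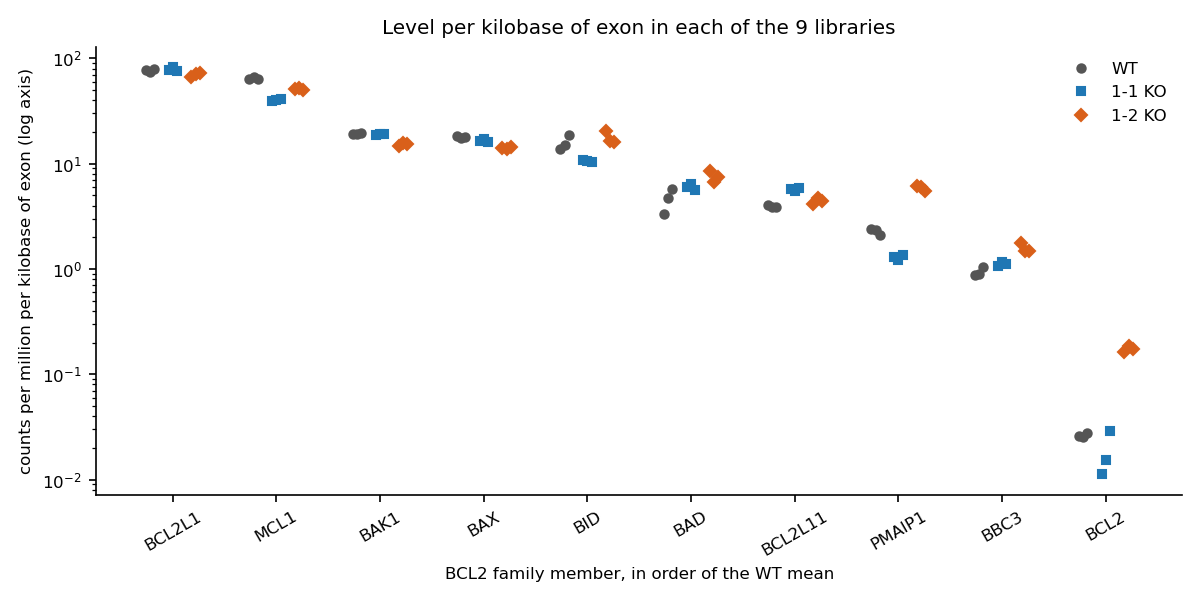
CPM per kilobase of exon (vertical log axis) of each member in each of the 9 libraries, with members ordered by their WT mean; marker shapes and colours give the line. Levels span from under 0.1 for BCL2 in WT to over 60 for BCL2L1, and PMAIP1 and BCL2 show the widest gaps between lines.

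As sums of levels per kilobase, the pro-survival members stood at 3.75, 3.80 and 3.81 times the effectors in the WT libraries, 3.37, 3.36 and 3.33 times in 1-1 KO, and 4.12, 4.22 and 4.10 times in 1-2 KO. The lines did not overlap, with 1-1 KO lowest and 1-2 KO highest. The sum of the 5 BH3-only members was 0.173 to 0.219 of the pro-survival sum in WT and 0.201 to 0.213 in 1-1 KO. It was 0.284 to 0.348 in 1-2 KO, so that WT and 1-1 KO overlapped and 1-2 KO lay above. This sum leaves out BMF, another BH3-only gene, with means of 11.1 in WT, 15.4 in 1-1 KO and 12.1 CPM per kilobase in 1-2 KO. The pro-survival sum leaves out BCL2L2, with 3.30, 6.48 and 4.35 CPM per kilobase in the same order. The order of the lines with these genes included was not examined. MCL1 mRNA was 26.5 to 30.1 times PMAIP1 mRNA in WT, 30.1 to 33.2 times in 1-1 KO and 8.35 to 9 times in 1-2 KO. BCL2L1 was 19.1 to 20.3 times BCL2L11 in WT, 12.9 to 15 times in 1-1 KO and 15.2 to 16.6 times in 1-2 KO. These ratios describe mRNA of chosen genes and carry no test.

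**Figure D5:**
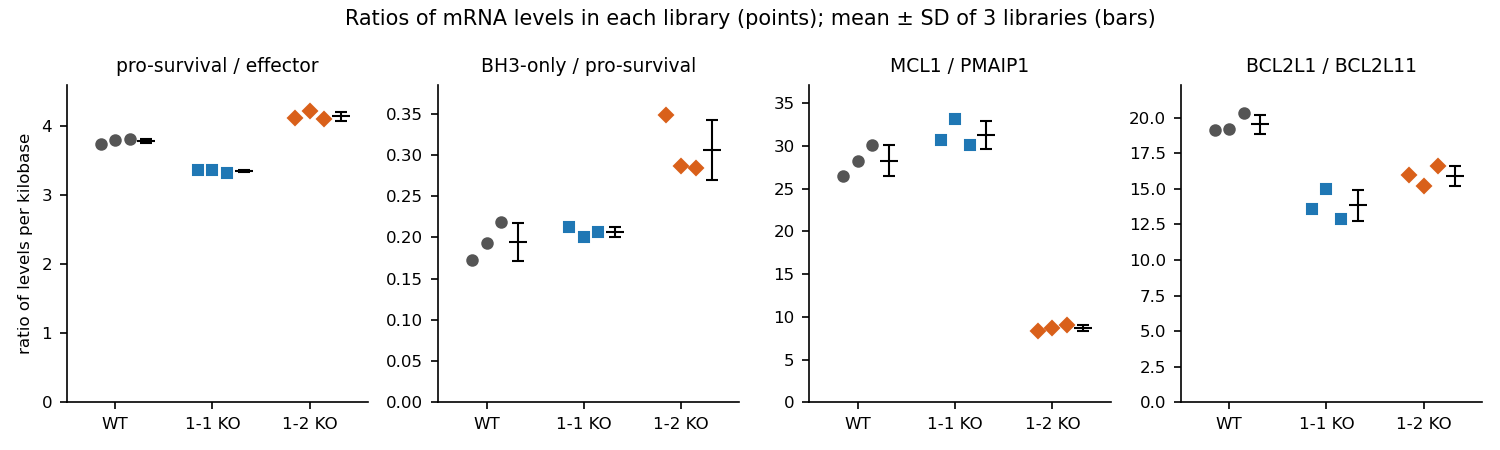
Ratios of summed or single levels per kilobase (vertical axes from 0) in each library of the 3 lines, with bars at the mean ± SD of 3 libraries. The ratio of MCL1 to PMAIP1 lies between 8.35 and 9 in 1-2 KO and at 26.5 or above in all other libraries.

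Of 13 further genes of the family, 10 were tested, and 7 were called in each knockout, 5 higher and 2 lower in 1-1 KO and 4 higher and 3 lower in 1-2 KO. That was 70% in each, beside 63.4% of all tested genes in 1-1 KO and 54.4% in 1-2 KO. BCL2L2, which encodes the pro-survival protein BCL-W, rose in 1-1 KO from a mean of 16.0 to 31.4 CPM (log2 fold change 0.97, adjusted p = 2.44e-10) and to 21.1 CPM in 1-2 KO (0.40, adjusted p = 1.49e-05). BCL2L13, a mitochondrial member linked to mitophagy, fell by 0.56 in 1-1 KO and by 0.20 in 1-2 KO. BCL2L14 rose by 2.82 in 1-1 KO, from 14 to 17 counts in the WT libraries to between 126 and 138 (adjusted p = 6.73e-09). BOK, an effector-like member, rose by 0.53 in 1-2 KO (adjusted p = 0.000309).

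Downstream of the pore, all 11 genes of the apoptosome and mitochondrial release were tested. In 1-1 KO 6 were higher and 2 lower, in 1-2 KO 1 was higher and 4 lower, and between the knockouts 7 were lower in 1-2 KO and 0 higher. The called shares were 72.7%, 45.5% and 63.6% in that order, beside 63.4%, 54.4% and 65.3% of all tested genes. APAF1, the scaffold of the apoptosome, rose by 0.39 in 1-1 KO (adjusted p = 1.72e-07) and fell by 0.27 in 1-2 KO (adjusted p = 1.3e-05). CYCS, cytochrome c, rose by 0.33 in 1-1 KO, and AIFM1, a flavoprotein released with it, fell by 0.55 in 1-2 KO. Neighbouring genes moved with some of these. Their medians were 0.61 around CYCS in 1-1 KO and -0.30 around APAF1 in 1-2 KO, and measured against them CYCS (-0.28) and APAF1 (0.03) changed sign.

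BBC3, PMAIP1 and BAX are known targets of p53, of which Huh-7 cells carry a mutant form. Of 18 genes in the list of p53 and its targets, 16 were tested, with 7 higher and 6 lower in 1-1 KO and 5 higher and 5 lower in 1-2 KO. These are 81.2% and 62.5% called, beside 63.4% and 54.4% of all tested genes. TP53INP1 rose by 1.18 in 1-1 KO (16.1 to 36.5 CPM, adjusted p = 7.84e-11) and TP53I3 by 0.62, while AEN, a nuclease, fell by 0.59. In 1-2 KO CDKN1A, the cell cycle inhibitor p21, fell by 1.43 (10.3 to 3.81 CPM, adjusted p = 8.17e-10), XPC, a DNA repair gene, rose by 0.31, and PHLDA3 rose by 2.20 from a mean of 0.226 to 1.06 CPM (adjusted p = 4.92e-06). The list did not move in one direction: CDKN1A was lower in 1-2 KO, where PMAIP1 and BBC3 were higher.

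Among 10 other transcription factors known to act on the members, 3 were higher and 3 lower in 1-1 KO and 5 higher and 1 lower in 1-2 KO. This was 60% called in each, beside 63.4% and 54.4% of all tested genes. FOXO1 fell by 0.58 and FOXO3 rose by 0.54 in 1-1 KO (adjusted p = 4.54e-09 and 2.48e-08); both proteins are known activators of BCL2L11. E2F1 rose by 0.38 in 1-1 KO. In 1-2 KO ATF4, an activator of PMAIP1 and BBC3 in the integrated stress response, rose by 0.29 (418 to 513 CPM, adjusted p = 4.61e-06), DDIT3, which encodes its partner CHOP, rose by 0.54 (adjusted p = 1.12e-05), and STAT3 fell by 0.26.

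Of 13 genes of the NF-kB pathway and its targets, 12 were tested, and 8 were lower and 3 higher in 1-1 KO, whereas 8 were higher and 1 lower in 1-2 KO. The medians were -0.38 and 0.31, and the direct comparison had 11 higher and 1 lower in 1-2 KO, with a median of 0.64. The called shares were 91.7% in 1-1 KO, 75% in 1-2 KO and 100% between the knockouts. Those of all tested genes were 63.4%, 54.4% and 65.3%. ICAM1, an adhesion molecule, was the lower one in 1-2 KO and fell in both knockouts, by 1.33 in 1-1 KO (234 to 92.9 CPM, adjusted p = 3.85e-15) and by 1.15 in 1-2 KO (adjusted p = 2.57e-14). CXCL8, which encodes interleukin 8, and NFKB2 fell by 1.12 and 0.66 in 1-1 KO. NFKBIA and TNFAIP3, which encode feedback inhibitors of the pathway, rose by 0.68 and 0.65 in 1-2 KO (adjusted p = 2.15e-09 and 1.79e-08).

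All 16 genes of proteins that act on the members after translation were tested, with 4 higher and 7 lower in 1-1 KO and 6 higher and 5 lower in 1-2 KO. Each knockout thus had 68.8% called, beside 63.4% of all tested genes in 1-1 KO and 54.4% in 1-2 KO. YWHAB and YWHAH, 14-3-3 proteins that can hold BAD, fell by 0.46 and 0.28 in 1-1 KO, and SFN, another 14-3-3 protein, fell by 1.22 in 1-2 KO (24.97 to 10.7 CPM, adjusted p = 6.95e-11). DYNLL1, a dynein light chain that can hold BIM, fell by 0.36 in 1-1 KO, where its neighbours had a median of -0.38. CASP8, the protease that cleaves BID, fell by 0.69 in 1-2 KO (43.6 to 26.9 CPM, adjusted p = 4.07e-10). AKT1, a kinase that phosphorylates BAD, rose by 0.38 in 1-2 KO, where its neighbours had a median of 0.36.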

How the data were processed

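A stranded mRNA kit was used for the 9 libraries, 3 for each of the lines 1-1 KO, 1-2 KO and WT. Per the submitters' processing notes and the study's methods, the authors used STAR for alignment to GRCh38 and featureCounts for counting. The deposited values are raw counts per gene, without normalization or a filter. The counts merge all isoforms of a gene, and whether the strand was used in counting is not given in the sources used here.

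The members and all gene lists were chosen with earlier results of these data known. Positions, symbols and exon lengths came from GENCODE 44, in which 60463 of the 60664 identifiers were found and 201 were not. Counts were tested in R 4.3.3 with edgeR 4.0.16 (filterByExpr at 10 counts per library and 15 in total, TMM, quasi-likelihood test, all 9 libraries in 1 fit with a term per line), and p-values were adjusted over 17207 genes. The biological coefficient of variation was 5.55%. DESeq2 1.42.0, other scalings, filters and samples, a replicate block, an adjusted p under 0.01, an offset equal to the median of the 50 nearest tested genes, and leaving out each library were alternatives. Per-kilobase levels were CPM divided by the length of the union of exons. Intervals are at 95%. The named genes were all 10 members and, in each pathway list and knockout, the 3 called genes with the smallest adjusted p. Some genes selected by this rule are not reported here. Figures were drawn with matplotlib 3.10.9 in Python 3.11.15.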

Additional observations from a re-analysis of the deposited data

Results flagged for a closer look

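PMAIP1 differed between the knockouts, being lower than WT in all 3 libraries of 1-1 KO and higher in all 3 of 1-2 KO. The test of the difference itself gave a log2 fold change of 2.19 for 1-2 KO over 1-1 KO (edgeR adjusted p = 4.04e-11), and it was called in every alternative run, including the median of the neighbouring genes as an offset, which gave 1.73.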

How the results depend on the processing

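Every alternative kept the number of called members within 1.5 times the reported one. It ranged from 4 to 7 in 1-1 KO, from 7 to 9 in 1-2 KO and from 8 to 10 between the knockouts. Correlations of the deviations of same-numbered libraries were between -0.187 and 0.0474, and so gave no sign that the replicate numbers pair the libraries. They cannot exclude that same-numbered libraries were handled together, which the labels do not say. With the replicate block, 4, 9 and 9 members and 54, 46 and 62 pathway genes were called in these comparisons, and BAX and BAD in 1-1 KO and BAD between the knockouts were no longer called.

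With the median of the neighbouring genes as an offset, the sign turned for BCL2L1 (-0.042), BAK1 (0.031), CYCS (-0.28) and DYNLL1 (0.020) in 1-1 KO and for APAF1 (0.028) in 1-2 KO, and scaling by library size alone turned BAK1 in 1-1 KO (0.013). The longest transcript as length raised most levels per kilobase, and scaling by library size alone moved MCL1 (62.9) and BAK1 (18.9 CPM per kilobase) in WT by more than their SD. BCL2, at 6 to 15 counts in WT and 1-1 KO, is limited by counting error there.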
